A study of Drosophila melanogaster with 28 samples.

Results

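The regions described here are the places in the pericentromeric part of chromosome 3 where ChIP-seq of the hybrid incompatibility protein HMR gave a peak in Drosophila melanogaster SL2 cells. They were found by joining the peaks of 18 lists wherever these overlapped by at least 1 bp. A joined region was kept if its midpoint lay at or beyond 22 Mb on 3L or below 4.1 Mb on 3R of the dm6 assembly, that is, in the 10.21 Mb between these borders and the centromere. This gave 734 of 12046 regions in all, 562 on 3L and 172 on 3R, and a further 4853 lay on the rest of chromosome 3.

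The cells were stably transfected with FLAG-HA-HMR under the copper-inducible pMT promoter, and all groups were induced with 250 uM CuSO4 and also expressed LHR, the binding partner of HMR. The construct was either HMR truncated at its C-terminus (HMR dC-tg) or full length HMR (HMR wt-tg). Anti-FLAG, which precipitates the transgenic protein, was used on 5 HMR dC-tg and 5 HMR wt-tg libraries. Anti-HMR, which precipitates total HMR, was used on 4 HMR dC-tg and 4 HMR wt-tg libraries whose chromatin also served 4 of that construct's anti-FLAG libraries. SL2 cells keep their own untruncated HMR, so an anti-HMR peak in HMR dC-tg cells can come from either protein. SL2 is a single cell line, and nothing in the labels says whether libraries of a construct came from separate transfections, so p-values measure the spread between these libraries.

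Pericentromeric DNA is packed into constitutive heterochromatin, which is rich in transposable elements and satellite repeats and carries HP1a bound to methylated histone H3. Genes that lie in it are active there, and many are long because their introns are filled with repeats. HMR and LHR occupy this chromatin together with HP1a, and HMR also sits at insulator sites on the arms. The C-terminus is the part of HMR that contacts LHR.

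Depth in reads is unknown, and the lists held between 465 and 9049 peaks each. Of the 734 regions, 575 (78.3%) were in 1 list and 159 in at least 2, against 59.2% of the regions on the rest of chromosome 3 that were in 1 list. The longest list, anti-HMR HMR wt-tg replicate 3, held 404 of these single calls and anti-HMR HMR dC-tg replicate 3 held 70. The anti-HMR difference in share is therefore given also without them and for regions in at least 2 lists, as are some counts for the latter. Other anti-HMR values include both libraries unless stated.

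Sequences of 7 regions are given first, because the results return to them. All are windows of 200 bases around the middle of the region, read 5′ to 3′ from Release 6 of the genome. No window overlaps an annotated UTR. The region at chr3R:3374243-3374477 was the one called in all 18 lists. It is intergenic, 51550 bp from the nearest start, that of spok, and its window matched itself at 69.0% of bases when shifted by 55, the spacing of an imperfect tandem repeat. The regions at chr3L:28091217-28091577 and chr3L:26139535-26139819 are AT-rich and hold 3 and 5 copies of TGCATA, the core of the binding site of the insulator protein Su(Hw). These copies are in capitals, read as TATGCA on the other strand.
3R, in all 18 lists, chr3R:3374260-3374459: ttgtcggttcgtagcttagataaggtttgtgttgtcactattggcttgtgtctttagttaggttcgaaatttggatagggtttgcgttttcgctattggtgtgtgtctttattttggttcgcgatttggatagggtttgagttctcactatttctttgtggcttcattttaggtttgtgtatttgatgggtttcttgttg
3L, 3 TGCATA, chr3L:28091297-28091496: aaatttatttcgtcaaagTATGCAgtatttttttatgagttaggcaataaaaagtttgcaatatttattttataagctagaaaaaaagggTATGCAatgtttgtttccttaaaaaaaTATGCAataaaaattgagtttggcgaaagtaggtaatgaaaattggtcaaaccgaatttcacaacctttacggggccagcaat
3L, 5 TGCATA, chr3L:26139577-26139776: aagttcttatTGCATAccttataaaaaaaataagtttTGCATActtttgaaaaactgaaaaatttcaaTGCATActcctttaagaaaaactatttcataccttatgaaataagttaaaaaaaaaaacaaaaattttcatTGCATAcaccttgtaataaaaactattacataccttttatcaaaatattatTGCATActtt

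The next 3 windows are copies of 1 dispersed repeat that several regions share, shown in the same orientation. Capitals mark bases in 16-base words that at least 3 of the regions hold. The last window is a satellite-like stretch near the assembled end of 3R. It is in lower case throughout and matched itself at 84.7% of bases when shifted by 11.
3R, Pzl intron, chr3R:3103721-3103920, plus strand: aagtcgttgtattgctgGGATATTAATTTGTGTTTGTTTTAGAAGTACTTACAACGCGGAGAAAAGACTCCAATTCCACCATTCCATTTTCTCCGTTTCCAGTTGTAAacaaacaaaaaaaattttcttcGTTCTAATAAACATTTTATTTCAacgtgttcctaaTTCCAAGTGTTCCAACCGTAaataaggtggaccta
3R, intergenic, chr3R:3974700-3974899, minus strand: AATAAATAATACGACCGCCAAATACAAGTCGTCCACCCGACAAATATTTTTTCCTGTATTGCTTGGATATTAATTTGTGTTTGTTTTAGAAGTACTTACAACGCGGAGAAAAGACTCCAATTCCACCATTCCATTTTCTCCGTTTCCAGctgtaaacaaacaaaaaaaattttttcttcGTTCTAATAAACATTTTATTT
3R, Myo81F intron, chr3R:1815905-1816104, minus strand: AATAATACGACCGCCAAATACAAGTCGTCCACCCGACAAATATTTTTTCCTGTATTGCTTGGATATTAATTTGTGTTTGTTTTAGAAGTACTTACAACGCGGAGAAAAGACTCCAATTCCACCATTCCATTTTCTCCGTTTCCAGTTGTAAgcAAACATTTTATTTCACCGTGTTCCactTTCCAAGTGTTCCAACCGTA
3R, near the centromeric end, chr3R:43591-43790: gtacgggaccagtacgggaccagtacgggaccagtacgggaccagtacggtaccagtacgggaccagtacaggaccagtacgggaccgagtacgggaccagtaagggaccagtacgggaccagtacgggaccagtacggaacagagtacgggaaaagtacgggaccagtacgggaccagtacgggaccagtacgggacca

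Transgenic HMR lacking its C-terminus placed a smaller part of its peaks in pericentromeric chromosome 3 than the full length protein, on both arms. With anti-FLAG, the share of a library's peaks was 1.68%, 1.12%, 1.43%, 1.45% and 0.823% in the 5 HMR dC-tg libraries. In the 5 HMR wt-tg libraries it was 3.87%, 5.16%, 4.31%, 3.59% and 3.20%. Every HMR dC-tg library lay below every HMR wt-tg library. The means were 1.3% ± 0.332 and 4.03% ± 0.753 (SD, n = 5 each), a difference of -2.73 percentage points (exact two-sided permutation test, p = 0.00794, which is the smallest that 5 against 5 allows, and 0.0159 after adjustment over 6 shares). Both arms were lower in HMR dC-tg, with 0.973% ± 0.238 and 2.91% ± 0.387 on 3L, and 0.327% ± 0.0953 and 1.11% ± 0.467 on 3R (SD, n = 5 each, exact permutation p = 0.00794 each). With the borders moved 1 Mb toward the centromere, the difference on 3R was -0.33 points in place of -0.79, while that on 3L was -1.95 in place of -1.94 (exact permutation p = 0.00794 each). Wilson intervals (95%) of single libraries, which cover counting error only, reached at most 2.196% in HMR dC-tg and began at 2.58% or above in HMR wt-tg.

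With anti-HMR the constructs overlapped. The shares were 2.61%, 3.902%, 5.82% and 3.20% in HMR dC-tg and 3.43%, 6.78%, 5.64% and 3.94% in HMR wt-tg. Their means were 3.88% ± 1.40 and 4.95% ± 1.54 (SD, n = 4 each, exact permutation p = 0.286). The difference was -1.07 percentage points with all 8 libraries, -1.48 without the 2 libraries that hold most single calls, and -0.37 when peaks in regions of at least 2 lists alone were counted. The share with anti-FLAG was below that with anti-HMR on the same chromatin in 4 of 4 HMR dC-tg pairs, with a mean difference of -2.46 percentage points (exact sign-flip test, p = 0.125, the smallest that 4 pairs allow). In HMR wt-tg it was below in 2 of 4 pairs, with a mean difference of -0.71 points (exact sign-flip test, p = 0.5). The test of the difference between these differences gave p = 0.143 (exact permutation, 4 against 4 pairs). With peaks in regions of at least 2 lists the same exact permutation test gave p = 0.0286, the smallest it allows. Those regions were picked by calls in the tested lists themselves, so no conclusion is drawn from that p.

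**Figure D1:**
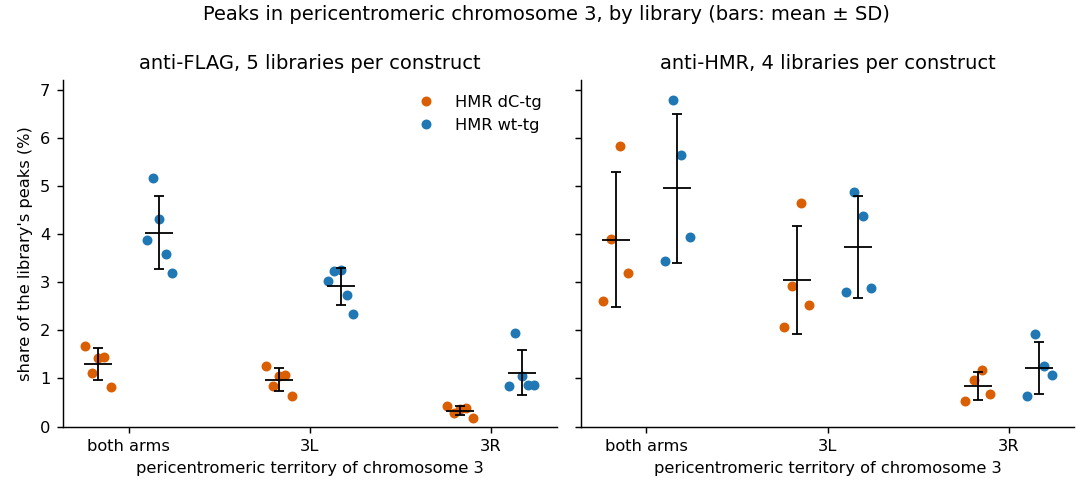
Share of each library's peaks (percent) in pericentromeric chromosome 3, on both arms and on 3L and 3R apart, with anti-FLAG at left and anti-HMR at right. Points are libraries and bars are mean ± SD. The anti-FLAG HMR dC-tg libraries (0.823% to 1.68%) lie below all HMR wt-tg libraries (3.20% to 5.16%), whereas the anti-HMR libraries of the constructs overlap.

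The lists hold no score and the order of their lines is not explained in the sources used here, so whether the top of a list is its strong end is not known. Lists of the same antibody ranked the regions they share in related order (rank correlations, across regions and as a description, were 0.609 to 0.960 for 45 pairs of anti-FLAG lists and 0.396 to 0.909 for 28 pairs of anti-HMR lists). The shortest list had 465 lines, so the first 465 lines of every list were compared. They held 2, 1, 1, 1 and 2 pericentromeric peaks in the anti-FLAG HMR dC-tg libraries, against 18, 24, 20, 14 and 19 in HMR wt-tg (exact permutation p = 0.00794). The anti-HMR libraries held 31, 34, 32 and 27 in HMR dC-tg and 37, 39, 28 and 28 in HMR wt-tg (exact permutation p = 0.571). Thus the top lines of the anti-FLAG lists of the truncated protein held 1 or 2 pericentromeric peaks, whereas those of the anti-HMR lists from HMR dC-tg cells held 27 to 34. The 465-line comparison was added after the lists were seen.

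**Figure D2:**
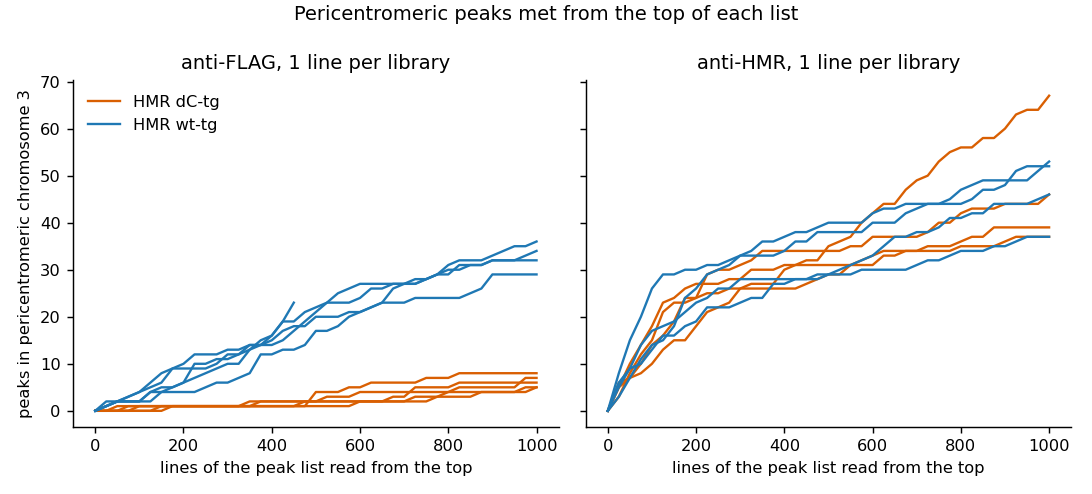
Cumulative number of pericentromeric chromosome 3 peaks (y axis) met while each list is read from its top line to line 1000 (x axis), 1 curve per library, with that of the shortest list ending where the list does. After 465 lines the anti-FLAG HMR dC-tg curves stand at 1 to 2 peaks and the HMR wt-tg curves at 14 to 24, while the anti-HMR curves of both constructs run together.

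Over whole lists, the median position of the pericentromeric peaks, on a scale from 0 at the top to 100 at the bottom, was 69.6, 80.8, 81.8, 71.5 and 87.9 in anti-FLAG HMR dC-tg and 56.6, 67.8, 67.8, 68.7 and 47.3 in HMR wt-tg. Their means were 78.3 ± 7.63 and 61.6 ± 9.44 (SD, n = 5 each, exact permutation p = 0.00794, adjusted p = 0.0952 over 12 comparisons of composition). With the borders moved 1 Mb toward the arm this difference was -0.48 (exact permutation p = 0.913). With anti-HMR they were 32.8 ± 10.1 and 42.2 ± 13.3 (SD, n = 4 each, exact permutation p = 0.343).

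On 3L the outermost megabase stood apart, whereas on 3R it did not. The bins were not tested against each other. In the outermost megabase of 3L, which holds Ten-m, a teneurin of synaptic partner matching, Csp, a synaptic vesicle chaperone, and the chromatin protein gene Chro, the anti-FLAG share was 0.316% ± 0.0810 in HMR dC-tg and 0.309% ± 0.191 in HMR wt-tg (SD, n = 5 each, exact permutation p = 0.937). In the next megabase it was 0.201% ± 0.108 and 0.749% ± 0.203, and between 2 and 3 Mb it was 0.0887% ± 0.0611 and 0.599% ± 0.295 (exact permutation p = 0.00794 each, adjusted p = 0.0227 over 20 bins of both antibodies). The 3 deeper bins of 3L also held less in HMR dC-tg (adjusted p between 0.0227 and 0.0397, exact permutation). On 3R, where the outermost megabase was also lower in HMR dC-tg, the share was 0.230% ± 0.0826 and 0.691% ± 0.339 in the outermost megabase, and 0.0112% ± 0.0251 and 0.114% ± 0.0602 between 2 and 3 Mb (adjusted p = 0.0227 each, exact permutation, n = 5 each). The deepest bin of 3R, with 0.0253% and 0.0851%, did not pass (exact permutation p = 0.198). None of the 10 anti-HMR bins passed, with the smallest p at 0.114 (exact permutation, n = 4 each).

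The outermost megabase held a larger part of the pericentromeric 3L peaks of the truncated protein, although most of these lay deeper. It held 28.6% to 40% of them in the 5 anti-FLAG HMR dC-tg libraries and 0% to 19.0% in the 5 HMR wt-tg libraries, with means of 32.6% ± 4.91 and 11.1% ± 6.99 (exact permutation p = 0.00794). The anti-HMR values were 26.9% ± 3.095 in HMR dC-tg and 20.7% ± 0.717 in HMR wt-tg (SD, n = 4 each, exact permutation p = 0.0286, the smallest possible, and up to 0.0571 when 1 library was left out). Both comparisons, like the bins, were chosen after the values were seen. The median distance of all pericentromeric peaks from the border was 1482 ± 271 kb and 1961 ± 272 kb with anti-FLAG (SD, n = 5 each, exact permutation p = 0.0317, adjusted p = 0.143). With the borders moved 1 Mb toward the centromere that difference turned round, to 125 kb (exact permutation p = 0.492).

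**Figure D3:**
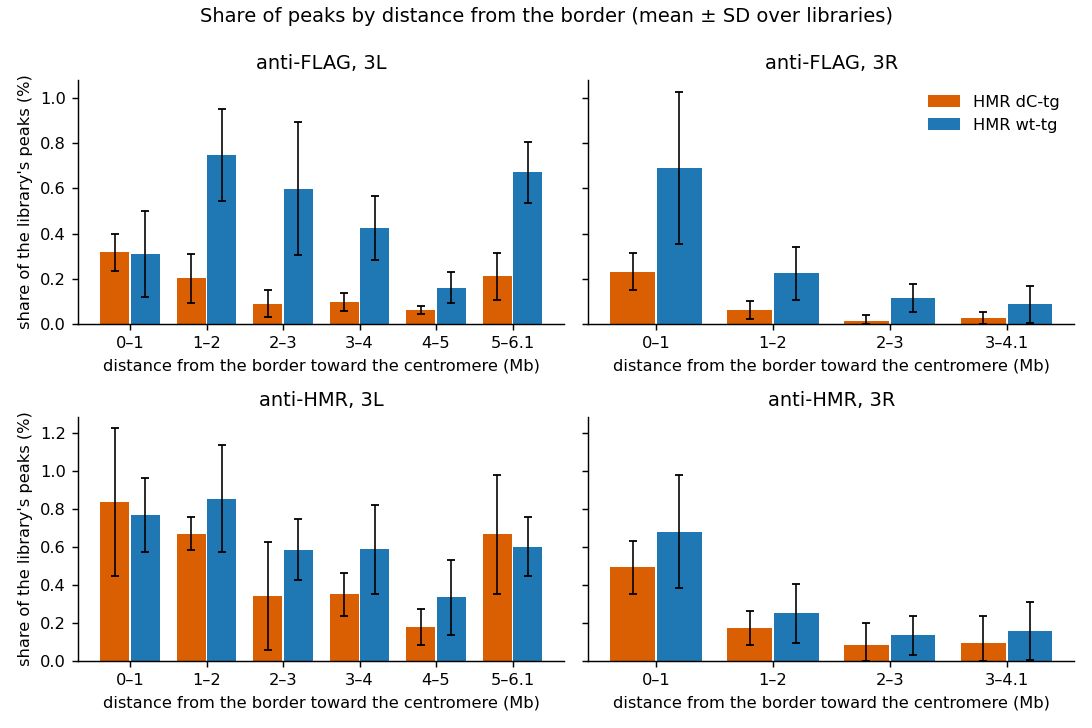
Mean share of a library's peaks (percent) per bin of distance from the border toward the centromere (Mb), for 3L and 3R (columns) and anti-FLAG and anti-HMR (rows). Error bars are SD over libraries, drawn no lower than 0. In the outermost megabase of 3L the anti-FLAG bars are alike (0.316% in HMR dC-tg and 0.309% in HMR wt-tg), and in the next they are 0.201% and 0.749%.

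Libraries called fewer of the pericentromeric regions than of those on the rest of chromosome 3, by a gap of -13.7 ± 4.60 percentage points in anti-FLAG HMR dC-tg and -7.02 ± 5.47 in HMR wt-tg (SD, n = 5 each, exact permutation p = 0.0714). Over regions in at least 5 lists these gaps differed by -43.7 points between the constructs (exact permutation p = 0.00794). That rule counts the tested lists themselves, and calls in the 5 HMR wt-tg lists alone can meet it. No conclusion is therefore drawn from this p. Single regions are given as counts without a test, since taking regions for their calls in HMR wt-tg favours lower counts in HMR dC-tg. At least 4 of 5 anti-FLAG HMR wt-tg libraries called 64 regions, of which 13 (20.3%) were in at least 4 HMR dC-tg libraries and 34 (53.1%) in 0 or 1. On the rest of chromosome 3, the same rule took 757 regions, of which 604 (79.8%) were in at least 4 HMR dC-tg libraries and 39 (5.15%) in 0 or 1. Chosen the other way, 14 pericentromeric regions were in at least 4 HMR dC-tg libraries, and 13 of these (92.9%) were in at least 4 HMR wt-tg libraries, as were 604 of 650 (92.9%) on the rest of chromosome 3. Without the 2 libraries of another library kit (replicate 5 of each construct) the pericentromeric shares were 29.3% and 60%, and without the shortest list of each construct 26.2% and 64.3%. With anti-HMR, 59 regions were in at least 3 of 4 HMR wt-tg libraries, and 48 of these (81.4%) were in at least 3 of 4 HMR dC-tg libraries, against 80.3% on the rest of chromosome 3. Of the 34 regions in 0 or 1 anti-FLAG HMR dC-tg lists, 13 were in at least 3 anti-HMR HMR dC-tg lists.

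By Fisher's exact test on the number of libraries, 25 of the 734 regions were lower in anti-FLAG HMR dC-tg at an unadjusted p under 0.05, beside 0.656% of all 12046 regions. None was higher, beside 0% of all regions, and with anti-HMR none differed in either direction (0% of all regions each). No region passed Fisher's exact test after Benjamini-Hochberg adjustment over all 12046 (smallest adjusted p = 1). With 4 or 5 libraries per construct, a region could pass this adjustment only if very many regions split as cleanly. With anti-HMR, only 0 against 4 calls can pass even unadjusted. No conclusion about single regions is therefore drawn from these results. The 25 became 52 without anti-FLAG HMR wt-tg replicate 2, the shortest list, and 2 without the libraries of another kit, where only 0 against 4 calls can pass.

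The 51 regions called in at least 9 lists were mostly gene starts. Of these, 29 (56.9%) lay within 1 kb of an annotated transcript start, against 3.81% of all 200 bp windows of the territory. On the rest of chromosome 3 the values were 84.8% of such regions and 26.8% of windows. Several of the 29 starts are named here with what their genes encode. RpL15 and RpL10 encode proteins of the large ribosomal subunit, vtd the cohesin subunit Rad21, Dbp80 an RNA helicase and eIF4B a translation initiation factor. MED21 is a Mediator subunit, UQCR-11 and ND-AGGG belong to the respiratory chain, Tim17b to mitochondrial protein import, Vps11 to vesicle traffic and CkIIalpha is the catalytic subunit of casein kinase 2.

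Most of these starts had anti-HMR calls in both constructs and differed in anti-FLAG calls. The RpL15 start (chr3L:27267062-27267308) was in 4 of 5 HMR dC-tg and 4 of 5 HMR wt-tg anti-FLAG lists, and in 4 of 4 anti-HMR lists of each construct. The Tim17b start (chr3R:3734719-3735004) was in 4 and 5 anti-FLAG lists. The MED21, eIF4B and l(3)80Fj starts were in 3 HMR dC-tg lists each, against 5, 4 and 5 HMR wt-tg lists. Those of RpL10, alpha-Cat (the cadherin-linked catenin), vtd, ND-AGGG, l(3)80Fg and Alg-2, which encodes a calcium-binding protein, were in 2 HMR dC-tg lists each, against 4 or 5 HMR wt-tg lists. Those of CkIIalpha, Vps11, UQCR-11, Dbp80 and Parp1, the gene of poly(ADP-ribose) polymerase, were in 1, against 4 each. The starts of Spf30, a splicing factor gene, and Set1, which encodes a histone H3 lysine 4 methyltransferase, were in 0, against 4 and 3. All these starts were in at least 3 anti-HMR lists of each construct. The starts of Csp, ArfGAP3, CG7369 and CG11109 near the 3L border were the reverse, with 4 or 5 anti-FLAG lists of each construct and 1 or 2 anti-HMR lists in HMR dC-tg, against 0 or 2 in HMR wt-tg.

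Gene starts thus made up 28 of these 64 regions with at least 4 anti-FLAG HMR wt-tg lists, of which 7 were in at least 4 HMR dC-tg libraries and 8 in 0 or 1. The 36 regions away from starts gave 6 and 26. Regions with their midpoint in an intron gave 1 and 20 of 23. The part of a library's pericentromeric peaks within 1 kb of a start was 49.6% ± 12.6 in HMR dC-tg and 33.4% ± 5.65 in HMR wt-tg (SD, n = 5 each, exact permutation p = 0.0476). The part inside gene bodies was 33.5% ± 6.33 and 43.1% ± 1.90 (exact permutation p = 0.0397, n = 5 each). Neither exact permutation test passed after adjustment over the 12 comparisons of composition (adjusted p = 0.143 each). Leaving out single libraries raised the p for starts to 0.0873, and among the first 1000 lines the gene body difference was -1.25 points (exact permutation p = 0.921). In the anti-HMR libraries these parts were 39.5% and 33.0% for starts (exact permutation p = 0.543) and 43.9% and 43.1% for gene bodies (exact permutation p = 0.686, n = 4 each). Annotated transposable elements were overlapped by 17.8% ± 10.9 and 14.3% ± 2.32 of the anti-FLAG peaks (SD, n = 5 each, exact permutation p = 0.516) and by 14.5% of all windows of the territory. Among the first 1000 lines this difference turned round, to -6.97 points (exact permutation p = 0.00794). Those lines held only 5, 7, 6, 8 and 5 pericentromeric peaks in HMR dC-tg, against 34, 24, 32, 29 and 36 in HMR wt-tg. The HMR dC-tg percentages there rest on so few peaks that no conclusion is drawn from that p. Whole lists held 9 to 52 such peaks in HMR dC-tg and 24 to 159 in HMR wt-tg.

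Among the most recurrent regions, chr3R:3374243-3374477, whose tandem repeat is printed above, stood at lines 41, 61, 80, 127 and 166 of the anti-FLAG HMR dC-tg lists and at lines 2, 1, 2, 4 and 2 of the HMR wt-tg lists. It was the first pericentromeric region in all 10 anti-FLAG lists. Scaled to the length of each list, its position was 1.29, 3.37, 4.17, 4.80 and 15.1 in HMR dC-tg and 0.0425, 0, 0.0407, 0.0678 and 0.0395 in HMR wt-tg, so the constructs did not overlap. In the anti-HMR lists its scaled position was 2.26, 12.3, 29.2 and 3.92 in HMR dC-tg and 3.08, 5.48, 0.254 and 0.803 in HMR wt-tg, which overlap. It shares sequence with a Myo81F intron region (chr3R:2302173-2302506) that was in 4 HMR dC-tg and 5 HMR wt-tg anti-FLAG lists and all 8 anti-HMR lists. The intergenic region chr3R:3789695-3790015 had scaled positions of 59.5, 86.0, 81.8 and 73.4 in 4 anti-FLAG HMR dC-tg lists and was absent from the other. In HMR wt-tg they were 7.65, 14.0, 9.61, 6.96 and 4.31, all nearer the top. The region at the start of CG33169 (chr3L:22863643-22863968), in the outermost megabase, went the other way in calls, with 5 HMR dC-tg lists and 4 HMR wt-tg lists. Its scaled anti-FLAG positions were 31.8, 45.1, 24.6, 18.5 and 46.4 in HMR dC-tg and 26.6, 14.0, 7.95 and 18.2 in HMR wt-tg, which overlap.

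Over the 13 regions in at least 4 anti-FLAG lists of both constructs, the median list position per library was between 37.8 and 58.9 in HMR dC-tg and between 8.18 and 28.0 in HMR wt-tg. The position was lower in the list in HMR dC-tg for 11 of the 13 by their medians. The 13 were chosen for being called in both constructs, so these positions are given without a test. Of the 13, 5 lay at starts in the outermost megabase of 3L, those of Csp, ArfGAP3, CG7369, CG33169 and CG11109. A further member of the 13, chr3L:25134555-25134768, lay over an annotated R1 element, a retrotransposon of ribosomal DNA. It was called by 5 HMR dC-tg and 5 HMR wt-tg libraries with anti-FLAG.

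The AT-rich region chr3L:28091217-28091577, with its 3 TGCATA, was the deepest recurrent region of 3L, 6091 kb from the border. With anti-HMR it stood at lines 3, 3, 3 and 5 in HMR dC-tg and 3, 3, 8 and 4 in HMR wt-tg, near the top of every list. With anti-FLAG its scaled position was 75.3, 89.1 and 93.0 in 3 HMR dC-tg lists and it was absent from 2, against 27.7, 53.9, 22.1, 25.1 and 16.3 in HMR wt-tg. The region chr3L:26139535-26139819, with 5 TGCATA, was in none of the anti-FLAG HMR dC-tg lists and in 4 HMR wt-tg lists, in their lower part, at scaled positions of 60.6, 72.5, 85.2 and 80.5. With anti-HMR it was at 2.17, 2.07 and 38.0 in 3 HMR dC-tg lists and at 3.36, 4.35, 11.2 and 28.4 in the HMR wt-tg lists. At least 3 TGCATA were in 2 of the 159 regions in at least 2 lists (1.26%), which are the pair just described, in 3 of all 734 regions (0.409%) and in 0.103% of all windows of the territory. At least 1 TGCATA was in 14.5% of the 159 regions and 9.89% of windows.

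Of the other motifs searched on both strands, CGATA, bound by the insulator protein BEAF-32, was in 39.0% of the 159 regions in at least 2 lists. It was in 23.2% of the territory's windows and 44.8% of regions in at least 2 lists on the rest of chromosome 3. GAGAG, bound by GAGA factor, was in 18.9%, 22.3% and 16.03% of these sets. None of the 3 motifs contains another, and a match is a description of letters.

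The genes with most regions in their span were Myo81F, lovit, Pzl, Snap25 and AGO3. Most of these regions were in 1 list. Myo81F, an unconventional myosin gene that spans 1966 kb of 3R, held 81, lovit, which encodes a vesicular transporter, 38, Pzl (Piezo-like, a mechanosensitive channel family) 22, Snap25, a SNARE of synaptic vesicle release, 22 and AGO3, a Piwi-family Argonaute of the piRNA pathway, 21. In at least 2 lists were 10 of those in Myo81F, 7 in lovit, 4 in Pzl, 5 in Snap25 and 3 in AGO3. The next counts are over all regions of a span, single calls included. The number called per anti-FLAG library was 0 to 2 in HMR dC-tg and 3 to 11 in HMR wt-tg for Myo81F. For Pzl it was 0 in each of the 5 HMR dC-tg libraries and 1 to 5 in HMR wt-tg, and for Snap25 it was 0 to 1 and 2 to 6. For lovit it was 0 to 1 and 1 to 6, and for AGO3 0 to 2 and 1 to 5, so these ranges met. With anti-HMR, Myo81F had 3 to 13 in HMR dC-tg and 3 to 56 in HMR wt-tg, the top values being from replicate 3 of each.

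Of 20 heterochromatic and border genes listed for their roles, 17 lay in the territory, 15 had a region in their span, 9 had one in at least 2 lists and 6 had one in at least 9. Of all 214 genes of the territory, 66 had a region in their span and 37 had one in at least 2 lists. The ecdysone synthesis genes nvd and spok had 10 and 3 regions in their spans, none called by anti-FLAG in either construct. In their spans Parp1 had 7, scro, a homeobox gene, 4 and FASN3, a fatty acid synthase gene, 3, with none in an anti-FLAG list. None of the regions in the spans of nvd, Parp1, scro and FASN3 was in 2 or more lists of any kind. Few regions had anti-FLAG calls at all, with 25.6% of the 734 in any HMR wt-tg list and 9.26% in any HMR dC-tg list. Dbp80 had 12 in its span, called by no anti-FLAG HMR dC-tg library and by at most 1 region per HMR wt-tg library. The adhesion gene nrm had 2 and Set1 2. RpL15 and eIF4B had none in their span and 1 each within 1 kb of their start.

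The regions named for the largest differences in anti-FLAG calls lay in introns, as did 45.8% of all 734, or between genes. Those between genes, the Spf30 start and the region with 5 TGCATA, were each in 0 HMR dC-tg and 4 HMR wt-tg anti-FLAG lists. The Pzl intron region chr3R:3103627-3104015 was called by 0 of 5 HMR dC-tg and 5 of 5 HMR wt-tg libraries with anti-FLAG, and by 3 and 4 of 4 with anti-HMR. The Myo81F intron region chr3R:1995105-1995510 was also in 0 and 5, but in 0 and 1 anti-HMR lists. It was the one region here in at least 5 anti-FLAG lists and at most 1 anti-HMR list. That class took 0.136% of the 734, a smaller part than the 2.07% of all regions. The region 1120 bp from the eIF4B start (chr3L:27859234-27859547), in an intron of lncRNA:CR46482, was in 0 and 4 anti-FLAG lists and in 3 and 4 anti-HMR lists.

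In the opposite direction, chr3L:23807645-23807853, over Cr1a and X-element sequence, was in 5 HMR dC-tg and 2 HMR wt-tg anti-FLAG lists. The starts of CG7133 and RpLP0, a ribosomal stalk protein gene, were in 3 HMR dC-tg lists each, against 0 and 1 HMR wt-tg lists, and both lie within 80 kb of the 3L border. The satellite-like window of 3R printed above (chr3R:43590-43791) was in 2 HMR dC-tg lists and no HMR wt-tg list with anti-FLAG. It was 1 of 12 regions of 3R that share this sequence, 11 of which were in a single list. With anti-HMR, a lovit intron region over a gypsy element (chr3L:25574363-25574576) was in 1 HMR dC-tg and 4 HMR wt-tg lists, and a CG42402 intron region (chr3R:4081795-4082062) in 0 and 3. No region was in 3 or 4 more anti-HMR lists of HMR dC-tg than of HMR wt-tg.

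A class called by at least 7 of 8 anti-HMR lists and at most 1 of 10 anti-FLAG lists took 6 regions here. That is 0.817% of the 734, a smaller part than the 1.96% of all regions. All 6 lay in the outermost megabase of 3L. They include an intron of Mes2 (Mesoderm-expressed 2, chr3L:22948200-22948515), where 7 anti-HMR libraries and no anti-FLAG library had a peak, at lines 131, 32, 61 and 144 in HMR dC-tg and 88, 300 and 80 in HMR wt-tg. A pair of the 6 lay in introns of Ten-m. Of the 11 regions in the Ten-m span, 4 were in at least 2 lists and none was in an anti-FLAG list of either construct. Most of the 734 regions had no anti-FLAG call either, since 25.6% were in any HMR wt-tg list and 9.26% in any HMR dC-tg list.

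Several regions shared sequence. The largest group of recurrent ones had 9 members (5 on 3L, 4 on 3R) that hold copies of the dispersed repeat printed above, with a median identity of 97.3% over their pairwise alignments, whose median length was 91 bases. A pair of the 9 in lovit lies side by side on 1 copy, so the 9 are not independent sites. With anti-FLAG the libraries called 2, 0, 0, 0 and 0 of the 9 in HMR dC-tg and 7, 3, 6, 7 and 7 in HMR wt-tg, so the constructs did not overlap. With anti-HMR they called 7, 5, 0 and 6 in HMR dC-tg and 8, 6, 3 and 4 in HMR wt-tg, which overlap. The group was picked after its values were seen, so no test is given. All regions of 3 smaller groups, with 3 regions each, were in 0 anti-FLAG HMR dC-tg lists and 2 to 4 HMR wt-tg lists. These groups were taken for having 3 regions in at least 2 lists. Some of these regions were in anti-FLAG HMR wt-tg lists alone, so the choice favours this pattern and no conclusion is drawn. Groups with 2 regions in at least 2 lists were mixed. With anti-FLAG, 1 pair was in 4 and 5 HMR dC-tg lists (5 each in HMR wt-tg) and another in 1 and 5 (4 and 5). Regions of the other such groups were in 0 HMR dC-tg lists.

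The genome holds 36 copies of the dispersed repeat, found by the shared words, of which 14 had a peak. In pericentromeric chromosome 3 there were 12 copies and 8 had a peak, and of 9 copies on 2R 6 had one. None of the 6 copies on X, the 8 on Y and the 1 on 2L had a peak. The words came from called pericentromeric regions of chromosome 3, which fixes peaks at copies there, so the places cannot be compared. Short copies, with only 22 to 28 of the 195 words, had no peak anywhere. The annotation used here names a transposable element, GATE or Stalker4, at 1 of the 9 regions, that in an AGO3 intron (chr3L:23671145-23671403). Reads of low mapping quality were removed before peak calling, so near-identical copies can lose reads, and how this touched single copies was not tested. Of the 34 regions in 0 or 1 anti-FLAG HMR dC-tg lists, 12 belonged to a group that shares sequence, 6 of them to this repeat. Of the 13 in at least 4 such lists 3 did, and of the 17 in between 0 did. Beside these stand 34 of the 159 regions in at least 2 lists and 83 of all 734.

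**Figure D4:**
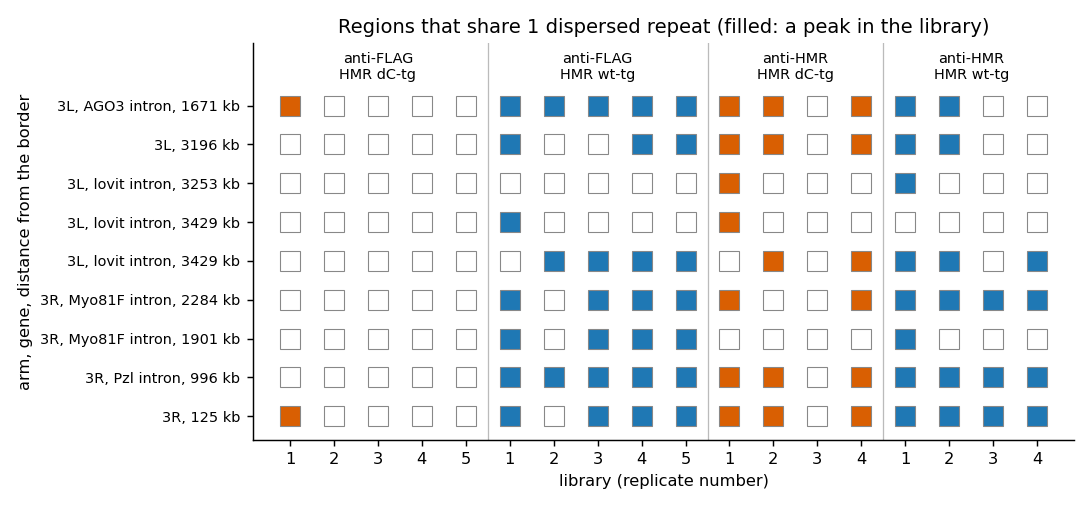
Peaks in the 9 regions that share the dispersed repeat (rows, with arm, gene and distance from the border in kb) in each of the 18 libraries (columns, by replicate number). A filled square is a peak in that library. The anti-FLAG HMR dC-tg block has 2 filled squares, both in replicate 1, beside 3 to 7 per library in the anti-FLAG HMR wt-tg block.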

How the data were processed

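Chromatin of SL2 cells was immunoprecipitated with anti-FLAG or anti-HMR. Per the labels and the methods, the authors aligned single-end reads of 50 bp to dm6 (Bowtie2 2.2.9), dropped those with a mapping quality under 2 (SAMtools 1.3.1) and called peaks in each library (HOMER 4.9, factor mode, 200 bp, -F 2). The deposited lists hold the chromosome, start and end of each peak and no score or other value, so line order served as rank, although its meaning is not given in the sources used here. Input libraries were not used here, and composite signals and HP1a classes were not computed.

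All 18 lists were merged at an overlap of 1 bp, and a library called a region if one of its peaks fell there. Libraries were the unit of replication. HMR dC-tg and HMR wt-tg were set against each other by exact two-sided permutation of the difference in means (252 splits for 5 against 5, 70 for 4 against 4), chromatin pairs by sign flips, and each region by Fisher's exact test, adjusted by Benjamini-Hochberg over all regions. The per-region test was checked on simulated calls. Alternatives moved the borders, used the first 1000 lines, other denominators or regions of more lists, ranked the values, or left out libraries. Genes and starts came from the Ensembl 115 annotation of Release 6, which is dm6. Regions were named by rules on the number of lists, the difference in calls and the distance from the border, and genes by their number of regions or from a list. The members, lists and rules were chosen with earlier results of these data known. Library replicate numbers are in accession order and pair nothing. Python 3.11.15, numpy 2.4.6, scipy 1.17.1 and matplotlib 3.10.9 were used.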

Additional observations from a re-analysis of the deposited data

Results flagged for a closer look

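Each measure was screened in each group of 4 or 5 libraries for a library far from the others, and 9 of 52 screens had one. Chance alone marks about 1 in 20 separate screens, but these measures overlap and share libraries, so that rate is a rough guide. Anti-HMR HMR dC-tg replicate 3 had 70 regions called by no other list, 56.14% of its pericentromeric peaks in gene bodies and 25.44% within 1 kb of a start. Anti-HMR HMR wt-tg replicate 3, the longest list, had 510 pericentromeric peaks, 404 regions called by no other list and a median distance of 2054 kb from the border. Anti-FLAG HMR dC-tg replicate 3 had 44.44% of its peaks in gene bodies. Anti-FLAG HMR wt-tg replicate 4 had 33 regions of its own, and replicate 2, the shortest list, had a 3R share of 1.935%.

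The part of pericentromeric 3L peaks in the outermost megabase differed between the constructs with anti-FLAG, by 21.53 percentage points (HMR dC-tg minus HMR wt-tg, exact permutation p = 0.007937). It was 18.77 to 23.52 points when any 1 library was left out.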

How the results depend on the processing

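The anti-FLAG difference in share (both arms, 3L and 3R) kept its direction and its side of the threshold in all 17 alternatives, from -3.531 to -2.273 percentage points for both arms. No paired analysis was possible because the labels tie no HMR dC-tg library to an HMR wt-tg library, and replicate numbers are in accession order. The pairs of antibodies on 1 chromatin gave -2.463 points in HMR dC-tg (exact sign-flip test, p = 0.125). An unpaired test, which ignores the shared chromatin, gave p = 0.02857 (exact permutation). Unless named, HMR wt-tg was subtracted from HMR dC-tg, and the cause of each change was not tested.

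The recovery gap is the percentage of pericentromeric regions a library called minus that of the rest of chromosome 3. With anti-FLAG it was -13.71 ± 4.6 in HMR dC-tg and -7.018 ± 5.465 in HMR wt-tg (SD, n = 5 each, exact permutation p = 0.07143). The difference was -27.75 with the first 1000 lines and -43.72 with regions in at least 5 lists (exact permutation p = 0.007937 each). The latter regions were picked by the tested lists themselves, so no conclusion is drawn from that p. Without the libraries of another kit, the anti-FLAG differences were -590.9 kb in median distance, -9.467 points for gene bodies, 19.69 for starts and -0.8877 for transposable elements, and 2 single regions were lower. With the first 1000 lines they were -801.5 kb, -1.25, 16.59 and -6.972 points (the last with exact permutation p = 0.007937), and 15.52 in list position. The HMR dC-tg values of that setting rest on 5 to 8 pericentromeric peaks per library, so no conclusion is drawn from that p. Borders 1 Mb toward the centromere gave 124.6 kb and 5.027 points for starts. Borders 1 Mb toward the arm gave -1.524 points for the 3L fraction, -2.695 for transposable elements and -0.4834 in list position. Ranks gave -9.549 for gene bodies and 16.24 for starts, past the threshold no longer, and regions in at least 2 lists gave 10.19 in list position.

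With anti-HMR, where no main difference passed, the first 1000 lines gave 0.025 points in share, 0.05 on 3L, -1.815 for gene bodies, -0.8859 for starts and 4.154 in list position. Gene bodies gave -3.338 with borders toward the centromere, -1.37 with borders toward the arm and -0.0195 with regions in at least 2 lists, which also gave 0.3953 in list position. Transposable elements gave 0.9176 without the libraries with most regions of their own. The antibody difference in HMR wt-tg was 0.4917 with regions in at least 2 lists. The difference between antibody differences was -3.04 with the first 1000 lines and -2.124 with regions in at least 2 lists.

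Leaving out 1 library at a time gave, with anti-FLAG, -8.571 to -4.901 for the recovery gap, -558.6 to -397.9 kb for the median distance, -0.5012 to 3.379 points for the 3L fraction, 13.52 to 21.15 for starts and -0.4021 to 5.958 for transposable elements. Single regions lower ranged from 25 to 52 and single regions higher from 0 to 1. With anti-HMR it gave -4.162 to 0.6385 for the recovery gap, -291.5 to 6.872 kb for the median distance, -3.234 to 4.532 points for gene bodies, -0.4267 to 11.41 for starts and -1.974 to 0.1526 for transposable elements, and single regions lower from 0 to 1. The median distance passed at -291.5 kb, without HMR dC-tg replicate 3 (exact permutation p = 0.02857).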
